A study of Mus musculus with 8 samples.

Results

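A set of 10 genes whose products restrain immune cells or shield tumour cells from them was followed in B16F10 mouse melanoma cells: *Cd274* and *Pdcd1lg2*, *Cd276*, *Cd47*, *Nt5e*, *Pvr* and *Nectin2*, *Lgals3* and *Lgals9*, and *H2-T23*. These 10 were taken by name from the 55414 genes of the deposited table, and each matched 1 row. RNA-seq covered 8 libraries from cells kept for 24 h at 21% or 1% O2, to ask how the loss of cyclophilin D (CypD, encoded by *Ppif*) and its overexpression change gene expression. The WT group held unmodified cells at 21% O2, and the CypD KO group held *Ppif* knockout cells at 21% O2, made with a guide RNA and Cas9 and taken through puromycin selection of stably transfected clones. The Control group held cells with the empty pcDNA vector at 1% O2, and the CypD OE group held cells stably transfected to overexpress *PPIF* at 1% O2. Both lines came from drug selection of resistant clones after transfection. Each group had 2 libraries. The labels do not say whether these came from separate cultures, so the p-values measure the spread between these libraries, which may be technical. CypD KO was compared with WT, and CypD OE with Control. Control and WT differ in oxygen and in vector transfection with drug selection together, whose parts cannot be told apart. That comparison shares its libraries with the other ones. CypD KO and WT differ in transfection, puromycin selection and cloning as well as in *Ppif*, and these cannot be told apart. CypD OE and Control were selected as separate stable lines, so line and construct cannot be told apart either.

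Immune checkpoints are pairs of a ligand on a target cell and an inhibitory receptor on an immune cell. *Cd274* (PD-L1) and *Pdcd1lg2* (PD-L2) bind PD-1 on T cells, and *Cd276* (B7-H3) belongs to the same B7 family. CD47 binds SIRPα on macrophages and restrains phagocytosis, and *Nt5e* (CD73) makes extracellular adenosine from AMP. *Pvr* (CD155) and *Nectin2* (CD112) bind inhibitory TIGIT and activating DNAM-1 on T and NK cells. Galectin-3 and galectin-9 bind glycans on lymphocyte surface proteins, and *H2-T23* encodes the heavy chain of Qa-1, which presents peptides to NKG2A receptors. Interferon-γ is a strong inducer of *Cd274* and of MHC class I genes in melanoma cells, and hypoxia-inducible factor (HIF) is known to raise several immune evasion genes.

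*Ppif* was 50.68 and 49.99 TPM (a level scaled by transcript length and by the total of the library) in WT and 10.44 and 12.11 TPM in CypD KO. It was 44.59 and 42.25 TPM in Control and 50.29 and 49.28 in CypD OE. *Ppif* was thus lower in the knockout (log2 fold change −2.07 ± 0.07, SE; limma adjusted p = 3.81e-06), whereas in the libraries labelled CypD OE it was 1.15-fold that of Control and did not pass the threshold of 0.05 (limma adjusted p = 0.0794). It passed without CypD KO replicate 1 (0.0331) or CypD KO replicate 2 (0.0337), libraries that enter through the shared estimate of the spread, at the same log2 fold change of 0.19. At so small a difference, directions in that comparison rest on the label. Of 18 HIF target genes, 17 were higher and 1 was lower in CypD KO than in WT, and all 18 were lower in the libraries labelled CypD OE than in Control. Melanocytic markers summed to 16463 to 16574 TPM in WT and 13078 to 13260 in CypD KO. In Control the sum was 21653 to 22197 TPM and in CypD OE 14079 to 14263. Of these 12 markers, 2 were higher and 9 lower in CypD KO than in WT, and 1 was higher and 9 lower in CypD OE than in Control. Against WT, 11 were higher and 0 lower in Control. Of all tested genes, 30.1% were called higher and 18.4% lower in CypD KO than in WT. The shares were 19% and 18.3% in CypD OE against Control, and 12.1% and 12.1% in Control against WT. Of 11 T and NK cell markers, 9 were at 0 in every library, *Cd3e* and *Cd8a* among them, and the 11 summed to 0 to 0.23 TPM. Myeloid markers summed to 4.69 to 5.62 TPM in WT, 25.3 to 26.7 in CypD KO, 5.33 to 5.63 in Control and 2.24 to 3.52 in CypD OE. *Cd68* made up most of that sum, while *Adgre1* and *Tyrobp* were at 0 in every library and *Ptprc* reached at most 0.02 TPM. *Lyz2* was 0.64 and 0.17 TPM in WT and 1.85 and 1.80 in CypD KO. Fibroblast markers summed to 50.5 to 53.5 TPM in WT, 54.2 to 55.4 in CypD KO, 74.4 to 76.8 in Control and 25.1 to 27.0 in CypD OE, and the 3 tested were all lower in CypD OE than in Control, while *Dcn* and *Thy1* were at 0 in every library. Endothelial markers summed to 0.41 to 4.21 TPM, with *Vwf* higher in Control than in WT and lower in CypD OE, and *Cdh5* at 0. Whether cells of another type took part in the differences below was not tested. A single fragment was worth 0.082 to 0.0975 TPM on a gene of 1 kb effective length, and 17942 to 19692 genes were above 0 per library.

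Of the 10 genes, 8 reached 1 TPM in at least 2 libraries and were tested, and *Pdcd1lg2* and *Nt5e* did not. In CypD KO against WT, 6 of the 8 were higher (*Cd274*, *Cd276*, *Cd47*, *Pvr*, *Lgals3* and *H2-T23*) and *Nectin2* was lower, against 30.1% of the 13526 tested genes called higher and 18.4% called lower. *H2-T23* passed the filter through the CypD KO libraries alone, so it had to differ, and without it 5 of 7 were higher and 1 was lower. In the libraries labelled CypD OE against Control, *Cd276* was higher and *Cd47*, *Pvr* and *Lgals3* were lower, against 19% of genes called higher and 18.3% called lower. In Control against WT, *Cd47*, *Pvr* and *Lgals3* were higher and *Lgals9* was lower, where 12.1% of genes were called higher and 12.1% lower. In CypD OE against WT, *Cd276* was higher and *Lgals9* lower, where 14% of genes were called higher and 13.7% lower. The counts of the related lists below stand against the same shares of all tested genes. Across the 8 genes, log2 fold changes had a median of 0.94 in CypD KO against WT, where that of all tested genes was 0.09, and 0.83 without *H2-T23*. In CypD OE against Control the median was −0.19, where that of all tested genes was 0.002. Over all genes, 4066 were called higher and 2486 lower in CypD KO than in WT, and after median-of-ratios rescaling of the libraries 3411 were called higher and 3147 lower. In these bulk cultures, a higher level in every cell and a larger share of expressing cells cannot be told apart.

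**Figure D1:**
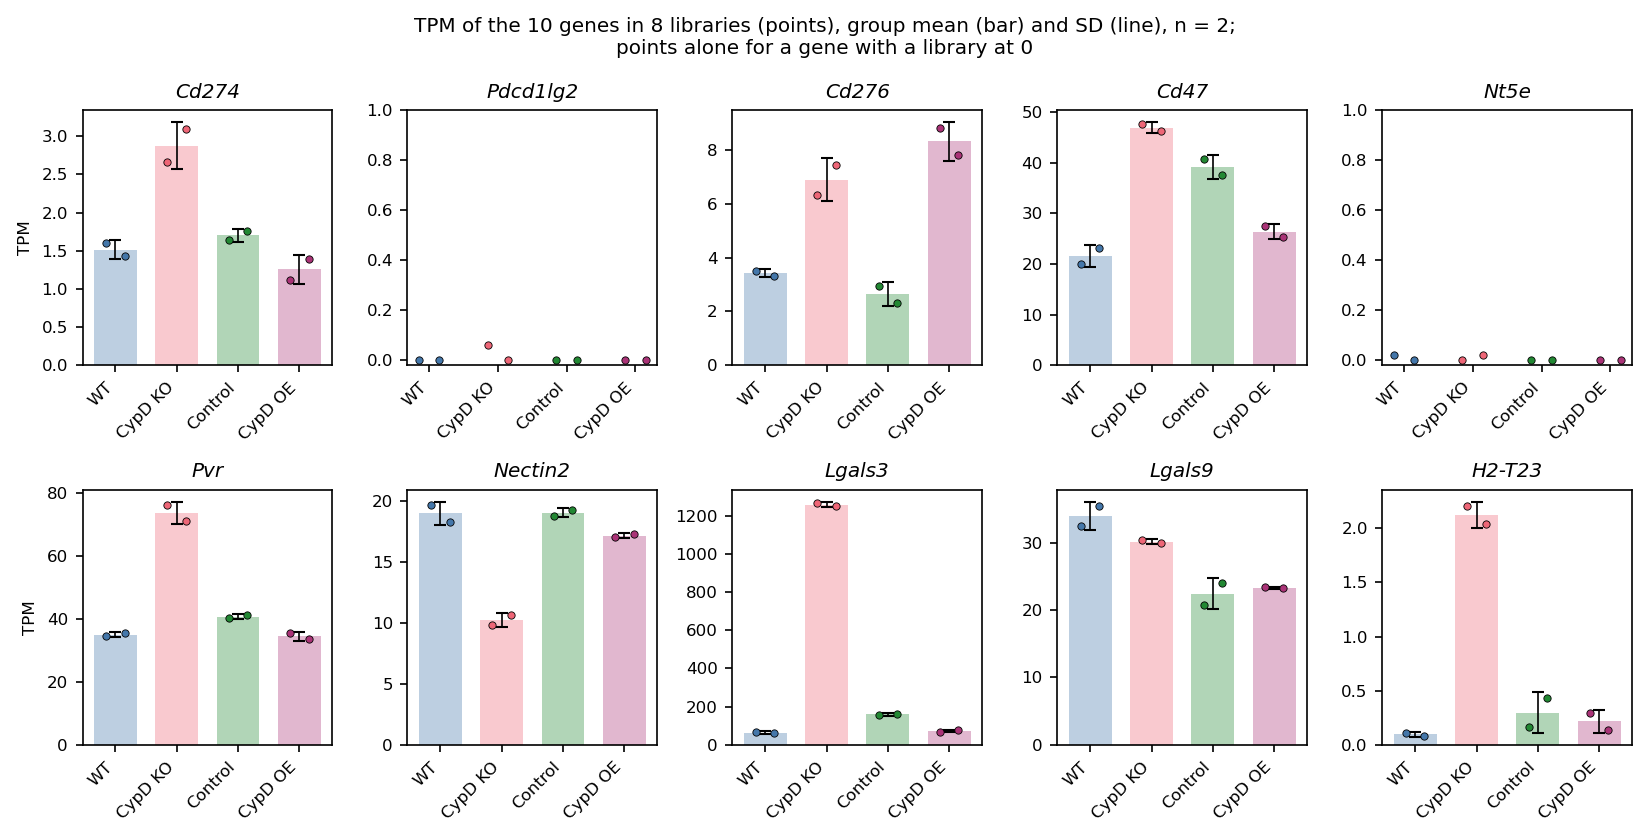
TPM (linear axis from 0, scaled per gene) of the 10 genes in WT, CypD KO, Control and CypD OE; points are the 2 libraries of a group, bars the mean and lines the SD (n = 2), and points stand alone for a gene with a library at 0. *Lgals3* reaches 1270 TPM in CypD KO, *Nectin2* is lowest there at 9.82 and 10.64 TPM, and *Pdcd1lg2* and *Nt5e* stay at or below 0.06 TPM.

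*Lgals3*, which encodes galectin-3, showed the widest range of levels in TPM among the 10 genes. It lies at chr14:47605208-47623624 (GRCm39, plus strand). *Lgals3* was 67.96 and 59.39 TPM in WT, 1270 and 1250.07 in CypD KO, 154.13 and 163.38 in Control, and 68.06 and 76.19 in CypD OE. The CypD KO libraries stood above all others, Control came next without overlap, and those of WT and CypD OE lay next to each other. Its mean rose 19.8-fold in CypD KO (log2 fold change 4.29 ± 0.08, SE; limma adjusted p = 6.54e-07), the 8th highest log2 fold change of the 13526 tested genes. By mean level it moved from rank 2608 of all genes in WT to rank 92 in CypD KO. In CypD OE it fell to 0.454 times the Control mean (log2 fold change −1.13 ± 0.08, SE; limma adjusted p = 8.90e-05), and it was 2.49-fold higher in Control than in WT (limma adjusted p = 1.24e-04). CypD OE and WT differed by 0.18 on the log2 scale, with a 95% confidence interval of −0.005 to 0.36 (limma adjusted p = 0.134).

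The 250 bases before the RefSeq start of *Lgals3* are shown because of this range, at chr14:47611067-47611316 (GRCm39, plus strand, found by exact match of the RefSeq GRCm38.p6 window). The site lies inside the annotated span of the gene, since other transcripts start upstream of it. Capitals mark matches to the core of the hypoxia response element, ACGTG or GCGTG on either strand.
Lgals3: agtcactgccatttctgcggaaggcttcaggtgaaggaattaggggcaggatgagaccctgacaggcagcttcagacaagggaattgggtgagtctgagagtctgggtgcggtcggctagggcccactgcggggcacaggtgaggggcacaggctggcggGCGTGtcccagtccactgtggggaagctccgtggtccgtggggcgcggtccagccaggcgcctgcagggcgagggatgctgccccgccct
The window held a single match, GCGTG, which starts 90 bases before the start site. A match describes letters only, and binding was not measured.

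The lectin relatives of *Lgals3* did not share its range. *Lgals9* (chr11:78853800-78875798, minus strand), whose product binds TIM-3, was 32.51 and 35.46 TPM in WT, 30.43 and 29.90 in CypD KO, 20.79 and 24.03 in Control, and 23.40 and 23.21 in CypD OE. All 4 libraries at 1% O2 lay below all 4 at 21% O2. The same split parts lines with a pcDNA plasmid from those without, so oxygen and plasmid cannot be told apart. *Lgals9* was lower in Control than in WT (log2 fold change −0.58 ± 0.08, SE; limma adjusted p = 0.00323) and in CypD OE than in WT (−0.52; limma adjusted p = 0.00399). CypD KO and WT differed by −0.17, with an interval of −0.36 to 0.03 (limma adjusted p = 0.132), a difference that was called after median-of-ratios rescaling (−0.24; limma adjusted p = 0.0350). Of 5 other galectin genes and galectin-binding proteins tested, 3 were higher and 0 lower in CypD KO than in WT, and 2 were higher and 1 lower in CypD OE than in Control. *Lgals1* (galectin-1) had means of 1334 TPM in WT and 2571 in CypD KO (log2 fold change 0.95; limma adjusted p = 3.97e-06), and was lower in CypD OE than in Control (−0.35; limma adjusted p = 3.87e-04). *Lgals3bp*, a secreted galectin-binding glycoprotein, was higher in CypD KO than in WT (1.84; limma adjusted p = 1.37e-05) and also higher in CypD OE than in Control (1.20; limma adjusted p = 1.36e-04). *Lgals6* matched no row of the table.

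*Cd47* (chr16:49620896-49735373, plus strand) had the same order of levels as *Lgals3* over a narrower range. It was 20.05 and 23.16 TPM in WT, 47.61 and 46.18 in CypD KO, 40.79 and 37.45 in Control, and 27.39 and 25.29 in CypD OE. No library of one group overlapped another, with CypD KO highest and WT lowest. *Cd47* was 2.17-fold higher in CypD KO than in WT (log2 fold change 1.09 ± 0.08, SE; limma adjusted p = 8.73e-05) and 1.81-fold higher in Control than in WT (limma adjusted p = 9.43e-04). In CypD OE it was 0.673 times the Control mean (log2 fold change −0.55 ± 0.08, SE; limma adjusted p = 0.00265). CypD OE stood 0.28 above WT on the log2 scale, with an interval of 0.08 to 0.48, which missed the threshold (limma adjusted p = 0.0503) and passed it without WT replicate 2 (limma adjusted p = 0.0322).

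The window before the start site of *Cd47* is printed since it held the most matches among the 9 genes with a window, at chr16:49675767-49676016 (GRCm39, plus strand). This start site lies 55121 bases inside the annotated span of the gene. Capitals again mark the core of the hypoxia response element on either strand.
Cd47: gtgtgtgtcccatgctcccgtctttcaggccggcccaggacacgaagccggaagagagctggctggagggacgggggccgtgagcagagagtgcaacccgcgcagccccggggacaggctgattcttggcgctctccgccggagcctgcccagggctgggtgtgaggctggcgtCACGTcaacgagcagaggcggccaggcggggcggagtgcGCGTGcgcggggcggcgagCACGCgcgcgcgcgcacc
Matches start 76, 37 and 18 bases before the start site. Such a window was at hand for 9 of the 10 genes, *Pvr* being the exception. A core of either form lay in the windows of 5 of these 9 (*Cd274*, *Cd47*, *Lgals3*, *Nectin2* and *Nt5e*), against 38.6% of 32851 promoters of the same length. These 5 were genes that rose in CypD KO, *Nectin2*, which fell, and *Nt5e*, which was near 0. Whether any of these matches acts on its gene was not tested.

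Of the other genes of the CD47 axis, 6 were tested, with 4 higher and 1 lower in CypD KO than in WT and 2 higher and 3 lower in CypD OE than in Control. *Thbs1* encodes thrombospondin-1, a secreted ligand of CD47, and had means of 8.61 TPM in WT, 91.1 in CypD KO, 5.82 in Control and 13.6 in CypD OE. It rose in CypD KO (log2 fold change 3.26 ± 0.06, SE; limma adjusted p = 6.54e-07), and it rose in CypD OE against Control (1.10; limma adjusted p = 3.40e-05), where *Cd47* fell. *Sirpa*, the receptor of CD47, was itself abundant in these cells, with means of 142.8 TPM in WT and 144.7 in CypD KO and an interval of −0.09 to 0.12 for their log2 difference. It was lower in CypD OE than in Control (−0.31; limma adjusted p = 0.00202). *Calr*, whose surface form promotes uptake by phagocytes, was lower in both comparisons (−0.33 with limma adjusted p = 0.00102 in CypD KO, −0.55 with limma adjusted p = 1.93e-04 in CypD OE). *Siglecg*, an inhibitory receptor for sialylated CD24, was 0.04 and 0 TPM in WT and 5.20 and 3.13 in CypD KO. It stayed at or below 0.08 TPM in the other libraries and passed the filter through CypD KO alone, so it had to differ and no test is given; without it, 3 of 5 genes of the axis were higher and 1 was lower in CypD KO.

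*Pvr* and *Nectin2*, both ligands of TIGIT and DNAM-1, moved in opposite directions in the knockout. They lie on the minus strand of chromosome 7, *Pvr* at chr7:19637503-19655085 and *Nectin2* at chr7:19450569-19484408, 153.1 kb apart. *Pvr* was 34.47 and 35.57 TPM in WT, 76.19 and 71.26 in CypD KO, 40.17 and 41.18 in Control, and 35.44 and 33.52 in CypD OE. *Nectin2* was 19.68 and 18.33 TPM in WT, 9.82 and 10.64 in CypD KO, 18.82 and 19.32 in Control, and 17.04 and 17.31 in CypD OE. In both genes the CypD KO libraries stood apart from the other 6, above them for *Pvr* and below them for *Nectin2*. *Pvr* rose 2.11-fold (log2 fold change 1.05 ± 0.05, SE; limma adjusted p = 1.62e-05), and *Nectin2* was 0.538 times its WT mean (−0.83 ± 0.07, SE; limma adjusted p = 1.39e-04). The mean *Pvr* level was 1.84 times that of *Nectin2* in WT and 7.21 times in CypD KO.

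The differences of *Pvr* at 1% O2 were small. In CypD OE it was lower than in Control by 0.23 on the log2 scale (limma adjusted p = 0.0154), a call that was lost without Control replicate 2 (limma adjusted p = 0.0733) or without CypD OE replicate 2 (limma adjusted p = 0.0831). It was 0.21 higher in Control than in WT (limma adjusted p = 0.0335), and this call was lost when any library of the pair of groups was left out (limma adjusted p = 0.0809 to 0.130). For *Nectin2*, CypD OE and Control differed by −0.14, with an interval of −0.31 to 0.03 (limma adjusted p = 0.167), and Control and WT by 0.005, with an interval of −0.17 to 0.18. Of 4 other nectins and nectin-like molecules tested, 2 were higher and 0 lower in CypD KO than in WT. *Cadm1*, a nectin-like adhesion molecule that binds CRTAM, was 0.33 higher in CypD KO on the log2 scale (limma adjusted p = 0.00238) and 0.20 lower in CypD OE than in Control (−0.20; limma adjusted p = 0.0230). *Afdn*, the cytoplasmic partner of nectins, was 0.35 higher in CypD KO (limma adjusted p = 0.0153), which was lost without WT replicate 2 (0.0814) or CypD KO replicate 1 (0.0858). In CypD OE against Control, *Nectin3* (0.29; limma adjusted p = 0.0175) and *Afdn* (0.27; limma adjusted p = 0.0485) were higher, and each call was lost when some single libraries were left out, for *Nectin3* without Control replicate 1 (0.0861), CypD OE replicate 1 (0.0620) or CypD OE replicate 2 (0.0783), and for *Afdn* without any one of the 4 libraries (0.0635 to 0.203), without the filter (0.111), after rescaling (0.0517) and without the trend (0.0878). *Tigit* and *Cd226* (DNAM-1) were at 0 in every library.

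*Cd276*, for B7-H3, had an order of levels unlike that of the other genes. It lies at chr9:58431412-58463665 on the minus strand and was 3.52 and 3.31 TPM in WT, 6.33 and 7.45 in CypD KO, 2.96 and 2.32 in Control, and 8.81 and 7.81 in CypD OE. The CypD KO and CypD OE libraries were high, without overlap with WT or Control. *Cd276* rose 2.02-fold in CypD KO (log2 fold change 0.83 ± 0.14, SE; limma adjusted p = 0.00256) and 3.15-fold in CypD OE against Control (1.36 ± 0.14, SE; limma adjusted p = 4.61e-04). It was also 2.43-fold higher in CypD OE than in WT (limma adjusted p = 0.00204), whereas Control and WT differed by −0.28, with an interval of −0.61 to 0.04 (limma adjusted p = 0.184). It was the single gene of the 8 called higher in CypD OE than in Control.

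*Cd274*, for PD-L1, was weakly expressed and rose in the knockout. It was 1.60 and 1.43 TPM in WT, 2.66 and 3.09 in CypD KO, 1.64 and 1.76 in Control, and 1.12 and 1.39 in CypD OE, or about 50.3 to 125.9 fragments per library if all came from its longest transcript. The CypD KO libraries were the highest and CypD OE the lowest. The mean was 1.90-fold that of WT in CypD KO (log2 fold change of TPM + 1, 0.62 ± 0.15, SE; limma adjusted p = 0.0120), and this call was lost without WT replicate 2 (limma adjusted p = 0.0575) or without CypD KO replicate 2 (limma adjusted p = 0.0851). CypD OE and Control differed by −0.26, with an interval of −0.61 to 0.09 (limma adjusted p = 0.210), and Control and WT by 0.10, with an interval of −0.25 to 0.45 (limma adjusted p = 0.655). *Cd274* (chr19:29344529-29365495, plus strand) shares 219 exonic bases of its 4081 with *Plgrkt* on the minus strand, which had means of 39.8 TPM in WT and 46.5 in CypD KO (log2 fold change 0.22; limma adjusted p = 0.0140). Whether counting used strand is not given in the sources used here, so reads of the shared bases cannot be assigned with certainty.

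*Pdcd1lg2* lies 22.8 kb from *Cd274* at chr19:29388319-29448882 and was 0.06 TPM in CypD KO replicate 1 and 0 in the other 7 libraries. That value corresponds to about 1.3 fragments on its longest transcript. *Nt5e* (chr9:88209089-88254146, plus strand) was 0.02 TPM in WT replicate 1 and in CypD KO replicate 2, about 0.9 fragments at most, and 0 in the other 6 libraries. Both genes were at or near the level of a single fragment, and no difference between groups was detectable at this depth. *Pdcd1*, for the receptor PD-1, was at 0 in every library.

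Of 16 other adenosine pathway genes, 8 were tested and 3 were at 0 in every library. *Entpd1* (CD39), the enzyme before CD73 in the route from ATP, was 0 and 0.75 TPM in WT, 1.47 and 0.76 in CypD KO, 0.53 and 0.73 in Control and 0 in both CypD OE libraries, and did not pass the filter. Of the 8 tested, 2 were higher and 2 lower in CypD KO than in WT, and 4 were higher and 1 lower in CypD OE than in Control. *Cd38*, whose product consumes NAD and feeds another route to adenosine, was 0.18 and 0.35 TPM in WT and 5.04 and 4.32 in CypD KO and at most 0.54 TPM in the other groups. It passed the filter through CypD KO alone, and without it 1 of 7 genes was higher and 2 were lower there. *Enpp3* passed through CypD OE alone, and without it 3 of 7 were higher and 1 was lower in CypD OE than in Control. *Entpd2*, an ATP-hydrolysing ectoenzyme, was lower in CypD OE than in Control (−1.32; limma adjusted p = 0.00142). *Slc29a1*, for the nucleoside transporter ENT1, was 0.53 higher in CypD KO (limma adjusted p = 0.00245) and 1.21 higher in CypD OE than in Control (limma adjusted p = 1.11e-04). *Panx1*, an ATP release channel, was lower in CypD KO (−0.54; limma adjusted p = 0.0217), which was lost without WT replicate 2 (0.112) or CypD KO replicate 1 (0.108), without the filter on low TPM (0.0546) and in a fit of the 4 libraries compared (0.0631), and higher in CypD OE than in Control (0.62; limma adjusted p = 0.0158).

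*H2-T23* (chr17:36340229-36345571, minus strand) was near its detection limit except in the knockout. It was 0.11 and 0.08 TPM in WT, 2.21 and 2.04 in CypD KO, 0.16 and 0.43 in Control, and 0.29 and 0.14 in CypD OE. The 2 CypD KO libraries stood apart, and those of Control and CypD OE overlapped. Since the CypD KO libraries alone carried it past the filter, no test of that difference is given. CypD OE and Control differed by −0.09, with an interval of −0.54 to 0.37 (limma adjusted p = 0.763). Reads of MHC class I genes can match several family members, and RSEM divides them, so levels within this family are uncertain.

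The 250 bases before its RefSeq start are shown for the interferon-stimulated response element, at chr17:36343594-36343843 (GRCm39, minus strand). This start site lies 1978 bases inside the annotated span of the gene. Capitals mark GAAANNGAA on either strand.
H2-T23: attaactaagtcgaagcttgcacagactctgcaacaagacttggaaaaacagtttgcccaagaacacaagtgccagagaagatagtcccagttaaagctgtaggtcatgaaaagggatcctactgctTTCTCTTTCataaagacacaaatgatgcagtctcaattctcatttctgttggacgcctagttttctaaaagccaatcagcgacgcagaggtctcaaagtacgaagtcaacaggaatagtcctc
The match starts 123 bases before the start site and reads TTCTCTTTC, the reverse complement of the searched form. Windows of *Cd274* and *Lgals9* held this core too, that is 3 of 9, against 7.13% of all promoters. The gamma-activated site TTCNNNGAA and the AP-1 site TGANTCA were in 0 of the 9 windows, and in 7.02% and 6.75% of all promoters.

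Other genes of MHC class I presentation were also higher in the knockout. Of 13 tested, 10 were higher and 1 was lower in CypD KO than in WT, and their median was 1.15 on the log2 scale, while 2 were higher and 3 lower in CypD OE than in Control, where the median was −0.14. *Tap2* and *Cd1d1* passed the filter through CypD KO alone, and without them 8 of 11 were higher and 1 was lower in CypD KO, with a median of 1.08. *H2-K1*, a classical heavy chain, was 2.26 and 3.64 TPM in WT, 11.68 and 16.92 in CypD KO, 12.32 and 15.35 in Control, and 1.67 and 4.92 in CypD OE. It was higher in CypD KO than in WT (1.95 ± 0.39, SE; limma adjusted p = 0.00562) and lower in CypD OE than in Control (−1.89 ± 0.39, SE; limma adjusted p = 0.00884). *Tapbp*, which loads peptides onto class I molecules, was 4.18-fold higher in CypD KO (limma adjusted p = 1.42e-04), and CypD OE and Control differed by −0.14, with an interval of −0.54 to 0.25. *Mr1*, which presents vitamin metabolites, was 0.75 higher in CypD KO (limma adjusted p = 2.46e-04) and fell by 1.16 in CypD OE (−1.16; limma adjusted p = 6.52e-05). *H2-Q4* was the gene called lower in CypD KO, chosen here after its values were seen, with means of 4.74 TPM in WT and 1.62 in CypD KO (−1.13; limma adjusted p = 2.30e-04).

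**Figure D2:**
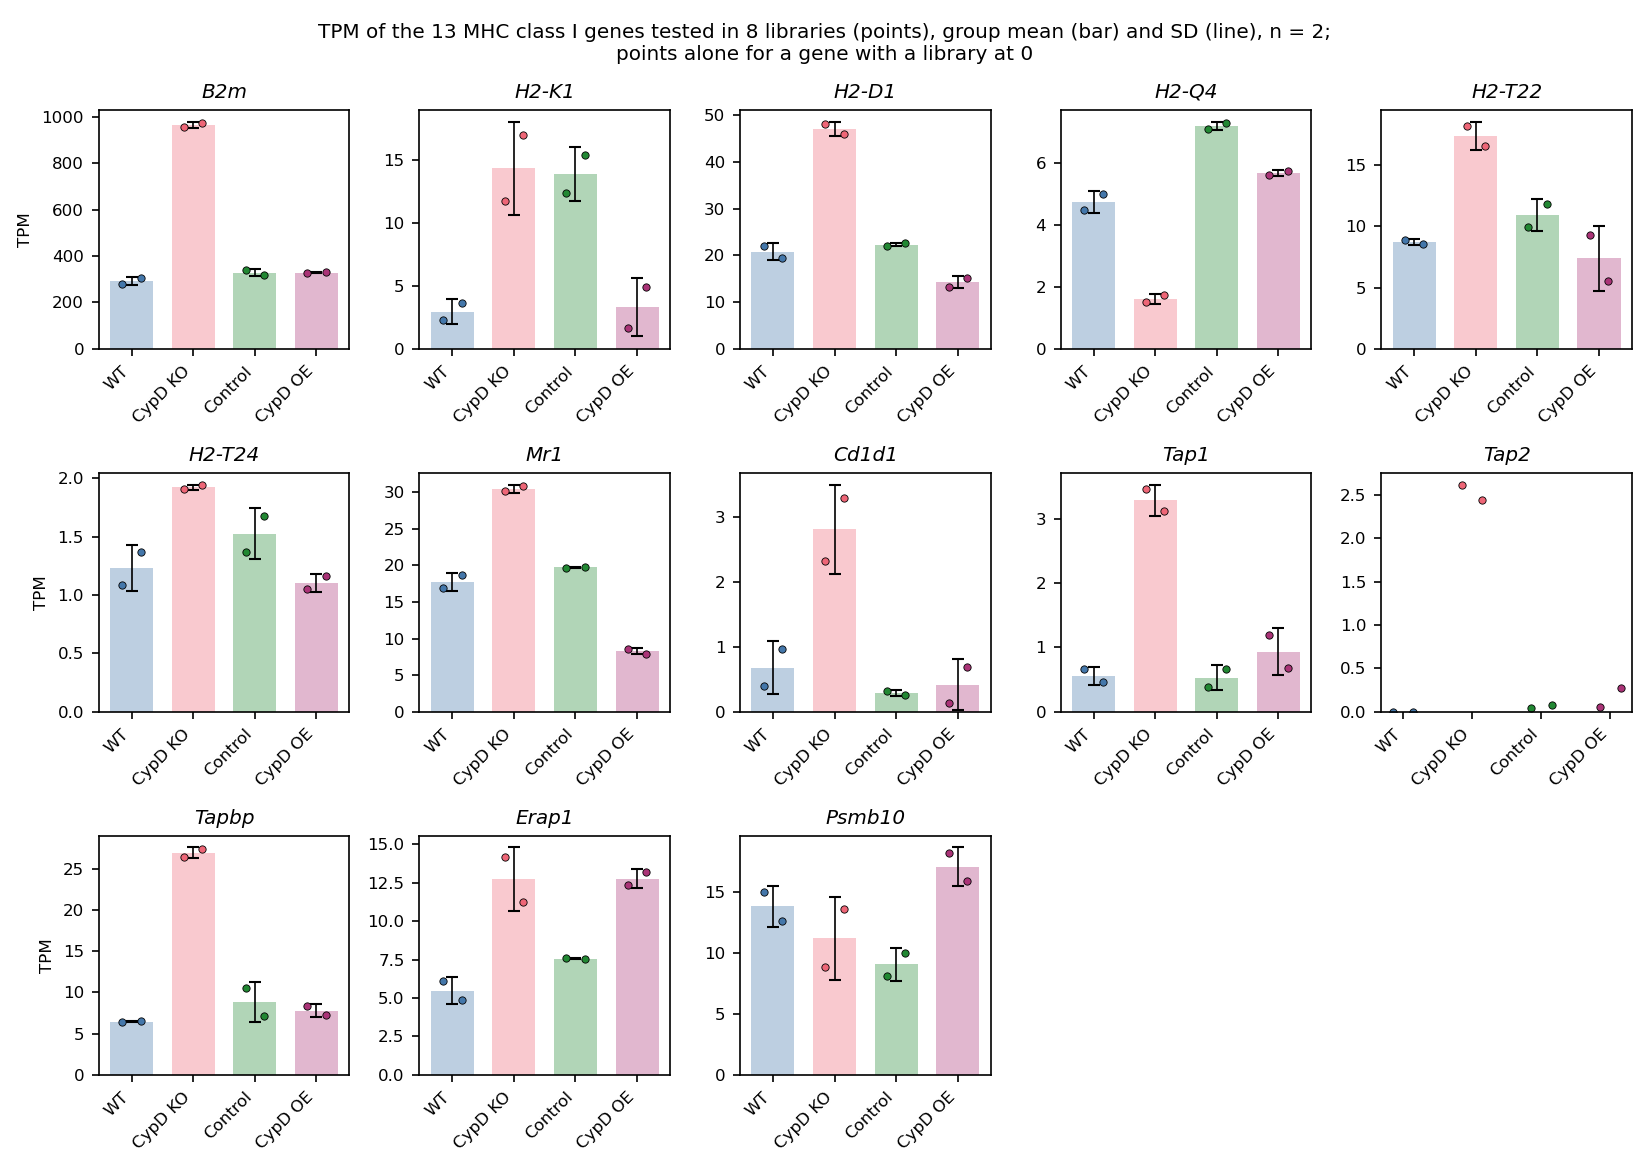
TPM (linear axis from 0, scaled per gene) of the 13 MHC class I genes tested in WT, CypD KO, Control and CypD OE; points are the 2 libraries of a group, bars the mean and lines the SD (n = 2), with points alone for a gene with a library at 0, such as *Tap2*. In all, 10 genes are higher in CypD KO than in WT, *H2-Q4* is lower, and *H2-K1* is also high in Control, at 12.32 and 15.35 TPM. *Tap2* and *Cd1d1* passed the filter through CypD KO alone, and without them 8 of 11 are higher in CypD KO.

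Ligands of the activating receptor NKG2D stood beside these. Of the 10 listed, 5 matched a row (*Raet1a*, *Raet1b*, *Raet1c*, *H60a* and *Ulbp3* did not) and 4 were tested, with 3 higher (1 to 3 over the alternatives) and 0 lower in CypD KO than in WT. *Raet1d* rose 2.15-fold in CypD KO (limma adjusted p = 7.57e-05) and 1.37-fold in CypD OE against Control (limma adjusted p = 0.00579). *Ulbp1* was 0.34 and 0.45 TPM in WT and 2.37 and 2.23 in CypD KO. It passed the filter through CypD KO alone, and without it 2 of 3 were higher there. *Raet1e* was 0.92 and 0.87 TPM in Control and 0 and 0.09 in CypD OE, all below 1 TPM. It was called lower in CypD OE (−0.86, limma adjusted p = 0.0107), a call lost without CypD OE replicate 1 (−0.80). The annotated spans of *Raet1d* and *Raet1e* overlap on the same strand, so their levels are uncertain too.

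**Figure D3:**
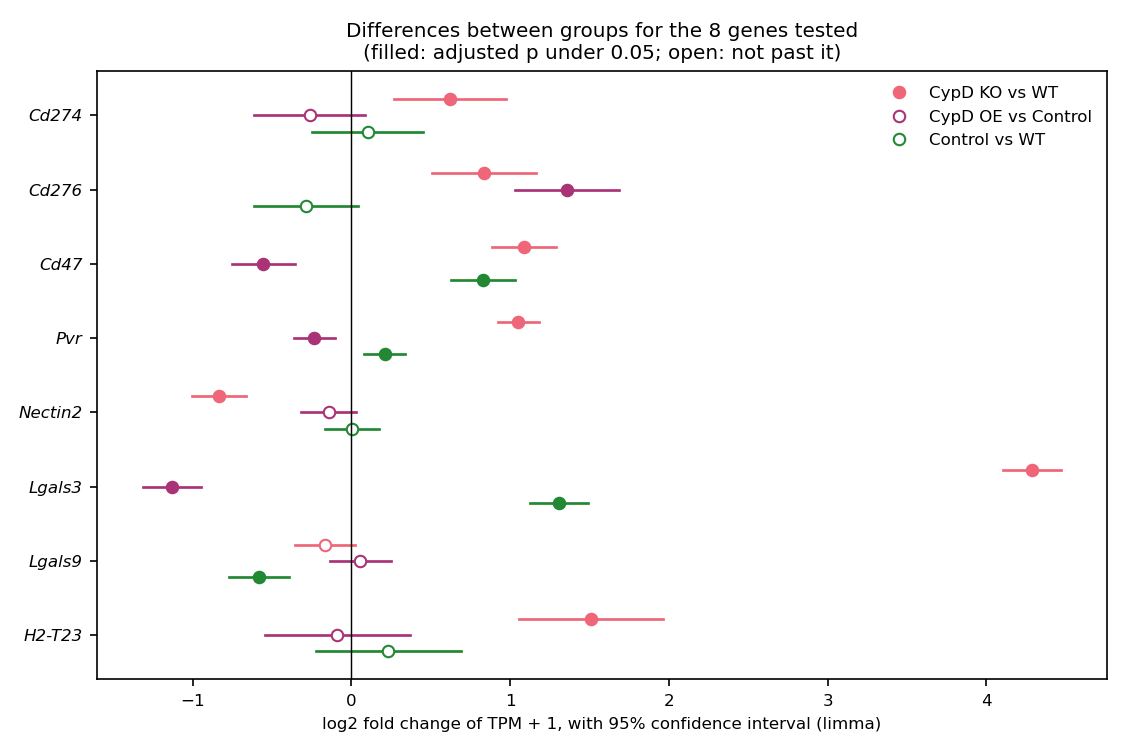
Log2 fold change of TPM + 1 (x axis) with its 95% confidence interval for the 8 tested genes in CypD KO against WT, CypD OE against Control and Control against WT; filled points have a limma adjusted p under 0.05 and open points do not. *Lgals3* lies at 4.29 in the knockout, *Nectin2* is the gene below 0 and called there, and *Cd276* is the gene above 0 and called in CypD OE against Control.

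Regulators of PD-L1 were followed from 2 lists. Among all tested genes, 30.1% were called higher and 18.4% lower in CypD KO than in WT. The shares were 19% and 18.3% in CypD OE against Control. Of 19 tested genes of interferon and JAK-STAT signalling, 8 were higher and 1 was lower in CypD KO than in WT. In CypD OE against Control, 1 of them was higher and 3 were lower. Over the alternatives, the number higher in CypD KO ran from 4 to 10. *Irf9*, a transcription factor of the interferon response, was 0.99 higher in CypD KO (limma adjusted p = 0.00398), and *Stat3* was lower in CypD OE (−0.64; limma adjusted p = 8.12e-04). Of 16 genes listed as regulators of PD-L1 protein stability, 6 rose and 6 fell in CypD KO against WT (5 and 6 without *B3gnt3*, which passed the filter through CypD KO alone). In CypD OE against Control, 3 were higher and 3 lower. The list does not sort genes by whether they raise or lower PD-L1, so these counts give no direction for it. *Cmtm3* was 1.07 higher in CypD KO (limma adjusted p = 2.50e-05), and *Cops5*, for a deubiquitinating subunit of the COP9 signalosome, was 0.66 lower (−0.66; limma adjusted p = 1.52e-05). *Cmtm6*, whose product keeps PD-L1 at the cell surface, was 0.62 higher in CypD OE than in Control (limma adjusted p = 0.00142). It was also 0.32 higher in CypD KO than in WT (limma adjusted p = 0.0153). *B3gnt3*, for a glycosyltransferase acting on PD-L1, was 0.68 and 0.79 TPM in Control and 0.15 and 0.03 in CypD OE, all below 1 TPM. It was called lower in CypD OE (−0.67, limma adjusted p = 0.0263), a call lost without any one of those 4 libraries (−0.75 to −0.59). PD-L1 protein was not measured in these files.

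Further ligands and secreted factors were read from 2 more lists. Of 3 tested genes among other B7 and checkpoint ligands, 2 were higher in CypD KO than in WT and 1 was lower in CypD OE than in Control. *Tnfsf9* (4-1BB ligand, which stimulates T cells) had means of 7.22 TPM in WT, 13.9 in CypD KO, 21.1 in Control and 6.13 in CypD OE, and both differences passed the test (0.87 with limma adjusted p = 0.00198, −1.64 with limma adjusted p = 2.00e-04). *Fgl1*, a ligand of LAG-3, was 0.10 and 0.32 TPM in WT and 1.42 and 1.93 in CypD KO. It passed the filter through CypD KO alone, which leaves 1 of 2 called higher. Of 6 secreted or enzymatic immunosuppressive factors tested, 5 were higher and 0 lower in CypD KO than in WT, and 2 were higher and 2 lower in CypD OE than in Control. *Spp1* (osteopontin) had means of 3.82 TPM in WT, 48.8 in CypD KO, 32.5 in Control and 0.135 in CypD OE, with log2 fold changes of 3.39 and −4.88 (limma adjusted p = 1.38e-05 and 4.67e-06). *Vegfa*, which is also among the HIF targets, was 2.46 higher in CypD KO and 1.90 lower in CypD OE (−1.90; limma adjusted p = 1.17e-06 and 3.27e-06). *Havcr2* (TIM-3), the receptor of galectin-9, was lower in CypD OE than in Control, whose mean was 5.98 TPM (−1.22; limma adjusted p = 0.00183).

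**Figure D4:**
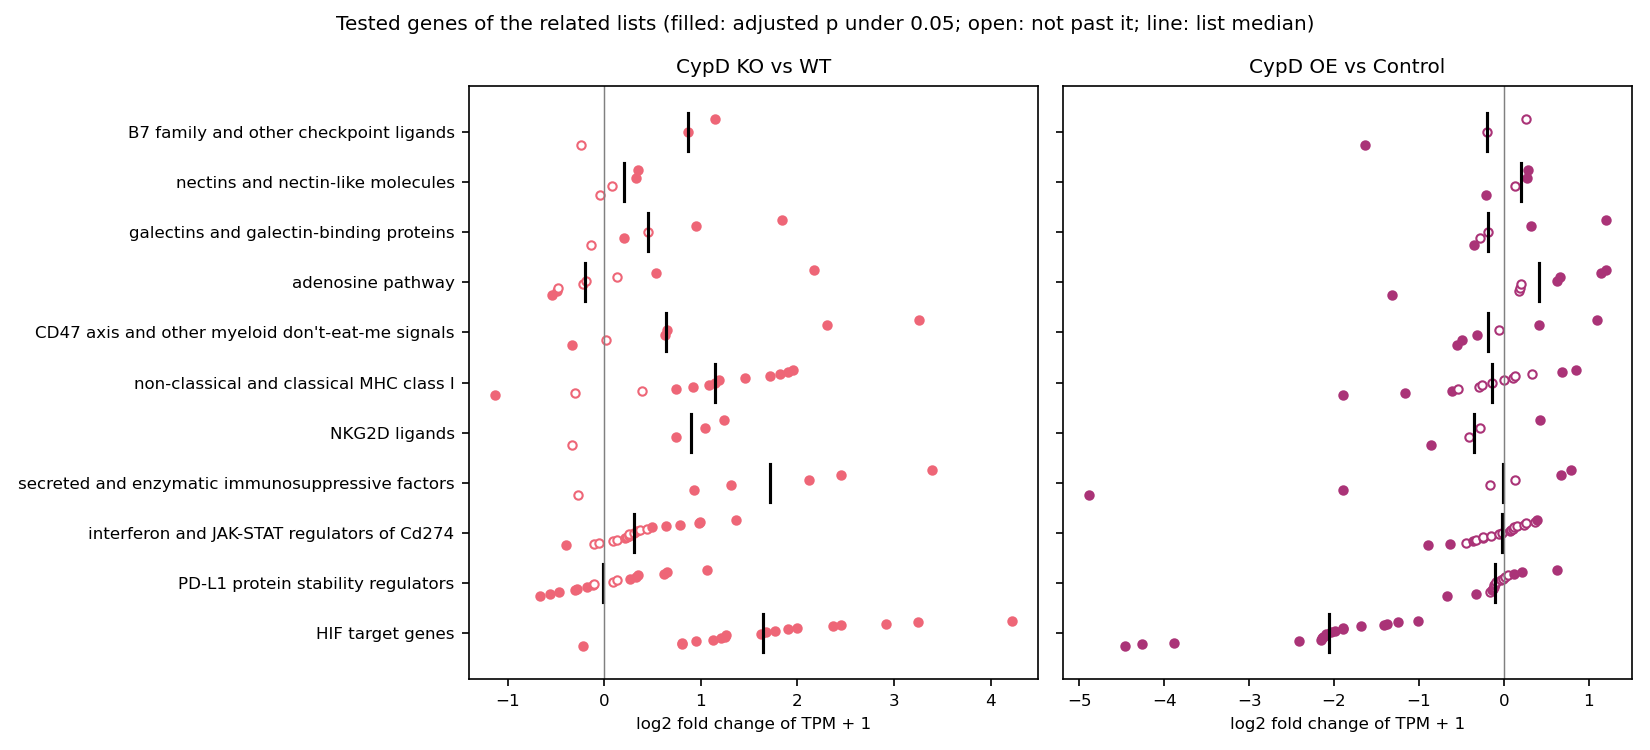
Log2 fold change of TPM + 1 (x axis) of the tested genes of 11 related lists in CypD KO against WT (left) and CypD OE against Control (right); each point is a gene, filled where the limma adjusted p is under 0.05, and black lines are list medians. The MHC class I median is 1.15 in CypD KO and −0.14 in CypD OE, while the HIF target median is 1.65 and −2.06. Without *Tap2* and *Cd1d1*, which passed the filter through CypD KO alone, the MHC class I median in CypD KO is 1.08.

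The HIF targets, a list of 18 genes, are set beside the members because the groups differ in oxygen and in CypD. *Bnip3*, a mitophagy receptor, and *Pdk1*, which limits pyruvate oxidation, were among those with the largest changes. *Bnip3* had log2 fold changes of 4.22 in CypD KO against WT and −4.47 in CypD OE against Control, *Adm* (adrenomedullin) 3.25 in CypD KO, and *Pdk1* −4.26 in CypD OE (limma adjusted p = 1.17e-06, 1.21e-06, 2.36e-04 and 4.17e-05). Among the 8 tested members, *Lgals3*, *Cd47* and *Pvr* were called higher in CypD KO, higher in Control than in WT and lower in CypD OE than in Control, as were 17 of the 18 HIF targets and 630 (4.66%) of the 13526 tested genes. These comparisons share the WT and Control libraries. *Cd276*, *Nectin2*, *Lgals9*, *Cd274* and *H2-T23* did not have that set of calls. For *Pvr*, the differences were small in Control against WT (0.21) and in CypD OE against Control (−0.23). Neither of these *Pvr* calls held in every alternative. Whether HIF took part in any of these differences was not tested.

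The genes with the most similar profile over the 8 libraries were found by Pearson's r of log2(TPM + 1), which is given as a description since all genes share the libraries and their 4 groups. For *Lgals3* they were *Tmem184b* (r = 0.998), *Anxa5* (0.998) and *Atp1b3* (0.997). *Anxa5*, for a phosphatidylserine-binding annexin, had means of 412 TPM in WT, 850 in CypD KO, 497 in Control and 414 in CypD OE, the same order on a smaller scale. For *Cd47* they were *6430590A07Rik* (0.993), *Oip5os1* (0.993) and *Fam174b* (0.991), and for *Pvr* *Adcy7*, *Ampd3* and *Ern1* (each 0.997). For *Cd276* they were *Nfix* (0.993), *Gm21926* (0.990) and *Ski* (0.987), and for *H2-T23* *Vamp8* (0.999), *Camsap3* (0.995) and *Pdcd4* (0.995). *H2-T23* and *Camsap3* passed the filter through CypD KO alone, so their high levels there were fixed in advance. The group means of *Cd274*, *Nectin2* and *Lgals9* spanned less than 1 on the log2 scale and were not matched.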

How the data were processed

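RNA-seq was carried out on 8 libraries of B16F10 cells. The authors trimmed reads with Cutadapt 3.4, aligned them with STAR 2.7.8a to GRCm39 and estimated levels with RSEM 1.3.1, and deposited one table of TPM values per gene and library. TPM keeps no read count, so the fragments given are estimates from the steps between low values. Genes at 1 TPM or more in at least 2 of the 8 libraries were kept (13526 of 55414), log2(TPM + 1) was fitted with limma 3.58.1 in R 4.3.3 over all 4 groups with a trended prior, and p-values were adjusted by Benjamini-Hochberg over all tested genes, with a threshold of 0.05. Fold changes on this scale understate changes of low genes. With 2 libraries against 2, an exact permutation test cannot go below p = 0.333, so none was used. The fit was tested on simulated data. Genes were matched to GENCODE vM39. Promoter windows came from RefSeq (GRCm38.p6) and were placed in GRCm39 by exact match.

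The 10 genes and the related lists were chosen with earlier results of these data known. From each related list, the 2 other genes with the largest absolute log2 fold change were named for CypD KO against WT and for CypD OE against Control, among those past the threshold whose libraries did not overlap. For members spanning at least 1 on the log2 scale, the 3 genes with the highest Pearson correlation were named. A gene that this rule names is not reported here. Alternatives for list genes, and counts without genes that passed the filter through 1 group alone, were added after the data were seen.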

Additional observations from a re-analysis of the deposited data

How the results depend on the processing

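The counts of called genes among the 10 ranged from 5 to 8 in CypD KO against WT, from 3 to 4 in CypD OE against Control and in Control against WT, and from 2 to 3 in CypD OE against WT over the alternatives. Without WT replicate 2 or CypD KO replicate 2, *Cd274* missed the threshold in CypD KO against WT (limma adjusted p = 0.0575 and 0.0851), and *Pvr* in Control against WT missed it in every fit with a library of these groups left out, without the filter on low TPM, in a fit of the 4 libraries compared and without the trend (limma adjusted p = 0.0515, 0.0637 and 0.0584). Small differences that were never called changed sign. *Nectin2* in Control against WT was −0.0015 after median-of-ratios rescaling and ranged from −0.043 to 0.054 with single libraries left out. Over the same leave-outs, *Lgals9* in CypD OE against Control ranged from −0.042 to 0.158, *H2-T23* in CypD OE against Control from −0.238 to 0.064, and *Pvr* in CypD OE against WT from −0.061 to 0.017. The cause was not tested. *Cd47* in CypD OE against WT passed the threshold with a pseudocount of 0.1 TPM or a filter of 5 TPM (limma adjusted p = 0.0494 and 0.0404). At 5 TPM *Cd274* and *H2-T23* were not tested, nor was *H2-T23* without a CypD KO library. The replicate numbers are shared between groups, but same-numbered libraries correlated by −0.03 to 0.108 in their deviations, so they were not treated as pairs. A fit with a replicate block called 7 of the genes in CypD KO against WT, 4 in CypD OE against Control, 3 in Control against WT and 2 in CypD OE against WT, and *Pvr* in Control against WT missed the threshold (limma adjusted p = 0.0537). Among the related lists, the number called higher in CypD KO against WT ran from 1 to 4 for the checkpoint ligands and for the nectins, from 1 to 2 for the adenosine pathway, from 1 to 3 for the NKG2D ligands, from 4 to 10 for the interferon list and from 7 to 11 for MHC class I. In CypD OE against Control, the number higher ran from 2 to 4 for the adenosine pathway, from 0 to 2 for the nectins and for the interferon list and from 1 to 3 for the PD-L1 stability list, and the number of checkpoint ligands called lower ran from 1 to 4.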
